A study of Mus musculus with 2 samples.

Results

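The S100 proteins are small proteins, most of which bind calcium. Here 9 of their genes were followed in cells taken from a healing skull defect. The 9 members were picked by symbol from the gene list of the count matrices: S100a8, S100a9, S100a6, S100a11, S100a4, S100a10, S100a1, S100a13 and S100b. Each symbol was found once among the 32285 genes counted, and 8 other S100 genes of the same list served only for comparison. In both libraries S100a9 and S100a8 were the 2 most abundant transcripts of neutrophil-like cells. The members that differed most between the libraries within neutrophil-like cells were not this pair but S100a6, which was higher with treatment, and S100a4 and S100a10, which were near 0 in those cells. The pair also led all genes in granulocyte-monocyte progenitor-like cells. It appeared at a lower level in every other kind of cell, together with other genes made by neutrophils.

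Both libraries came from C57BL/6 mice per the labels, C57BL/6J, male and 2 months old per the study's methods, in which a circular defect of 1.8 mm had been made in the frontal bone. The GA library came from mice given gambogic amide, a small molecule used to activate TrkA, the receptor of nerve growth factor, at 1.2 mg/kg in 10% DMSO per the labels, where the study's methods state a higher dose. The control library came from mice given 10% DMSO alone. Injections of 100 µL into the abdominal cavity began 24 h before the injury and went on daily for 1 week, and a piece of skull about 3 mm across, holding the defect, was digested with collagenases on day 7. The red cells were then lysed, the cells of 5 mice were pooled into each library, and transcripts were counted with 10x Genomics droplets by unique molecular identifiers (UMIs, 1 per captured transcript). With 1 library per treatment, no test between treatments was possible, and treatment, pool, digestion and droplet run cannot be told apart. A value is given in UMIs of a gene per 1000000 UMIs (CPM) of the cells named. Intervals are exact 95% intervals that cover counting error only, not the spread between cells or between mice.

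S100 proteins act as dimers, and most of them change shape when they bind calcium and then hold on to a partner protein. Most members work inside the cell, at annexins, the cytoskeleton or the cell membrane. S100A8 and S100A9 form a complex, calprotectin, that fills the cytoplasm of neutrophils, withholds zinc and manganese from microbes and acts as a danger signal at TLR4 and RAGE when it leaves the cell. In bone repair neutrophils arrive first, followed by monocytes and macrophages, and mesenchymal cells then lay down the new tissue.

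On GRCm38, the mm10 build, 8 members lie on chromosome 3 and S100b on chromosome 10. S100a1 (chr3:90511034-90514392, minus strand) and S100a13 (chr3:90514435-90524581, plus strand) stand head to head. They are followed by S100a4 (chr3:90603771-90606045, plus), S100a6 (chr3:90612882-90624181, plus), S100a8 (chr3:90668978-90670035, plus) and S100a9 (chr3:90692632-90695721, minus). S100a11 (chr3:93520488-93526287, plus) and S100a10 (chr3:93555080-93564643, plus) form a separate group, and S100b occupies chr10:76253853-76261159 on the plus strand. RefSeq promoter windows of 300 bases were at hand for 8 members, all but S100a10. The letters TATAAA, the core of a TATA box, stood on either strand of 13.6% of 32851 windows and in those of S100a4, S100a8 and S100a9 among the members. The letters TTGCNNAA, a site of the C/EBP factors that act in myeloid cells, stood in 10.8% of windows and among the members only in that of S100a9. The following stretches are shown because they carry these letters in the pair that dominates the neutrophil data, because S100a4 has a like TATA box yet is nearly silent in those cells, and because the gap shows how close S100a1 and S100a13 start. Capitals mark the matched letters, and each stretch runs 5′ to 3′ on the gene's strand, the gap on the plus strand.
S100a8, chr3:90669029-90669058, plus: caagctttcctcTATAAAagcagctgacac
S100a9, chr3:90695704-90695733, minus: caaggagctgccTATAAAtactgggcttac
S100a4, chr3:90603727-90603756, plus: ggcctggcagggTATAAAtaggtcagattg
S100a9, chr3:90695939-90695968, minus: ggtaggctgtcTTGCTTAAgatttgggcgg
S100a1 to S100a13 gap, chr3:90514393-90514434, plus: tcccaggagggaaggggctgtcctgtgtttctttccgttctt
Counted from the start listed by RefSeq, the TATAAA letters lay at −30 to −25 in S100a8 and at −31 to −26 in S100a4, while in S100a9 they began at the listed start itself and the TTGCTTAA letters lay at −236 to −229. Only 42 bases separate the annotated ends of S100a1 and S100a13. A match of letters is a description and not a measured binding site.

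After filtering, 8375 cells of the GA library held 160386283 UMIs with a median of 10930 per cell, and 7555 control cells held 184414573 UMIs with a median of 16336. Cells were grouped without any S100 gene and the groups were named from marker genes, so "neutrophil-like" and the like are names given here. The libraries differed in their cells: neutrophil-like cells were 52.8% of GA cells (4421) and 27.6% of control cells (2085), and they held 26.7% and 8.53% of all UMIs. Mesenchymal-like cells numbered 775 and 1699, macrophage-like cells 748 and 1350, and monocyte-like cells 594 and 462. Between the libraries 19 cell barcodes of kept cells were shared.

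**Figure D1:**
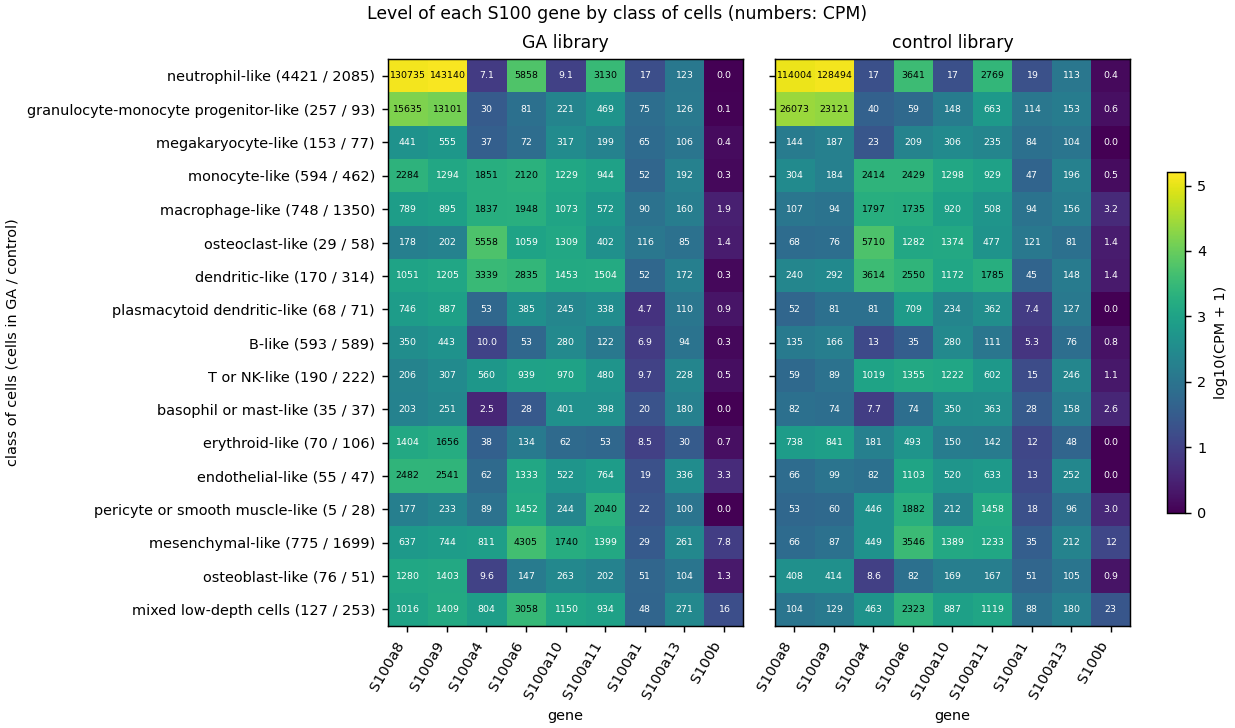
Level of each of the 9 members by named group of cells (rows, with cells in GA and control) in each library, printed as CPM and coloured by log10(CPM + 1). S100a8 and S100a9 stand at 114004 CPM or more in neutrophil-like cells, while S100a4 and S100a10 stand at 7.099 to 17.5 CPM there and at 449 CPM or more in macrophage-like and mesenchymal-like cells.

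Counted over all cells of a library, the members made up 8.34% of GA UMIs and 2.78% of control UMIs, of which S100a8 and S100a9 alone gave 7.68% and 2.18%. S100a8 stood at 36894 CPM in GA and 10285 CPM in control cells, a log2 ratio of 1.84, and S100a9 at 39941 and 11478 CPM, a log2 ratio of 1.799. S100b was the one member lower by more than 0.5 log2 units, at 2.78 against 8.70 CPM (log2 ratio −1.65, interval −1.801 to −1.49), while S100a10 (−0.34), S100a1 (−0.30), S100a4 (−0.25) and S100a13 (−0.05) were lower by less. These 3 of 9 members differed by more than 0.5 log2 units over all cells, where 32.9% of 15318 genes with at least 200 UMIs did. The share of neutrophil-like cells differed between the libraries at the same time, and all 7 other neutrophil genes followed here (Ngp, Camp, Ltf, Retnlg, Mmp8, Cd177 and Ly6g) were higher by more than 0.5 units in GA, with a median log2 ratio of 1.76. Within neutrophil-like cells the same 7 genes had a median log2 ratio of 0.11, and none of them passed 0.5.

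Neutrophil-like cells held nearly all of the pair. They contained 95.2% of the S100a8 and S100a9 UMIs of the GA library and 95.05% of those of the control library. S100a8 stood at 130735 CPM in GA (interval 130627 to 130844) and 114004 CPM in control neutrophil-like cells (113837 to 114171). S100a9, its partner in calprotectin, stood at 143140 CPM in GA and 128494 CPM in control cells. The difference between the libraries was small beside the level, with log2 ratios of 0.20 for S100a8 and 0.16 for S100a9, while the median gene of these cells stood at −0.14. In a single neutrophil-like cell the pair took up a median of 24.7% of all UMIs in GA and 21.6% in control cells. At the 10th percentile of cells the pair held 10.4% in GA and 3.88% in control cells.

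Of the 8 members with at least 200 UMIs in neutrophil-like cells, 3 differed by more than 0.5 log2 units between the libraries, S100a6 upward and S100a4 and S100a10 downward, where 8.72% of 8258 genes did (1.09% higher in GA and 7.63% lower). With no doublets removed the log2 ratio of S100a4 was −0.55 and that of S100a10 −0.23, which is no longer beyond 0.5. S100a6, which binds annexins and the ubiquitin ligase partner CacyBP, stood at 5858 CPM in GA and 3641 CPM in control cells, a log2 ratio of 0.69 (interval 0.67 to 0.70). Only 48 of the 8258 genes, 0.581%, had a log2 ratio this high or higher, S100a6 among them. S100a11, another annexin partner, stood at 3130 CPM in GA and 2769 CPM in control cells, a log2 ratio of 0.18. Both genes were thus among the most abundant transcripts of neutrophil-like cells: S100a6 was 12th and 15th, and S100a11 was 18th in either library. Thinned to 2000 UMIs, 91.9% of GA and 87.1% of control neutrophil-like cells held an S100a6 UMI, and 8.45% and 6.30% of B-like cells did. S100a13, which takes part in the release of FGF1 and IL-1α from cells, stood at 123 and 113 CPM and S100a1, best known as a regulator of calcium pumps in muscle, at 17.1 and 18.6 CPM.

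The 8 clusters of neutrophil-like cells differed in the pair and in S100a6. S100a8 stood at 161882 CPM in GA and 141438 CPM in control cells of the cluster led by Ltf, a granule gene of immature neutrophils, and at 150632 and 142618 CPM in the dividing cluster (Top2a, Mki67), so the former was highest in GA and the latter in control. It stood at 149874 and 128958 CPM in the cluster led by the collagenase gene Mmp8. It was 131460 and 112129 CPM in the cluster led by Thbs1 and Krt83, and 123697 and 114411 CPM in the mature cluster led by Cstdc4 and Retnlg. The lowest levels were in 3 mature clusters, led by Arg2 (88467 and 70710 CPM), by the chemokine gene Cxcl3 and Acod1 (58364 and 39400 CPM) and by the immediate early genes Egr1 and Egr3 with Ccl3 and Ccl4 (67969 and 41714 CPM). In the last of these, which held 698 GA and 313 control cells, the libraries stood farthest apart, with log2 ratios of 0.70 for S100a8 and 0.85 for S100a9. The Cxcl3 and Acod1 cluster followed with 0.57 and 0.68, and in the other 6 clusters S100a8 differed by 0.08 to 0.32 and S100a9 by 0.05 to 0.28. S100a8 was thus higher in GA in 8 of 8 clusters, and the pair of clusters with the largest log2 ratios was the pair with the lowest levels.

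S100a6 was lowest in the dividing and Ltf clusters, where the pair was high. It stood at 528 CPM in GA and 222 CPM in control cells of the dividing cluster and at 3230 and 1216 CPM in the Ltf cluster. In the Mmp8 cluster it stood at 7240 and 4473 CPM and in the Thbs1 and Krt83 cluster at 8150 and 5566 CPM. Its highest level was in the mature Cstdc4 and Retnlg cluster, 13102 and 9181 CPM, followed by the Arg2 cluster with 10674 and 6685 CPM. The Cxcl3 and Acod1 cluster held 7514 and 4657 CPM and the Egr1 cluster 7811 and 5806 CPM. S100a6 was higher in GA in 8 of 8 clusters, with log2 ratios of 1.41 in the Ltf cluster, 1.25 in the dividing cluster and 0.43 to 0.69 in the others. Among the 4 mature clusters S100a8 and S100a6 were both highest in the Cstdc4 and Retnlg cluster and next in the Arg2 cluster. S100a11 was also lowest in the dividing cluster, at 1091 and 1068 CPM, and highest in the Cstdc4 and Retnlg cluster, at 5449 and 4965 CPM, and its log2 ratios of 0.03 to 0.23 were smaller than those of S100a6 in every cluster. S100a1 was highest in the dividing cluster, with 47.8 and 47.2 CPM there, 18.4 and 19.3 CPM in the Ltf cluster and at most 5.80 CPM in the other 6. Neutrophil-like cells were also deeper in GA, with a median of 7049 UMIs per cell against 5092, and with every cell thinned to 2000 UMIs the log2 ratio of S100a6 was 0.54.

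**Figure D2:**
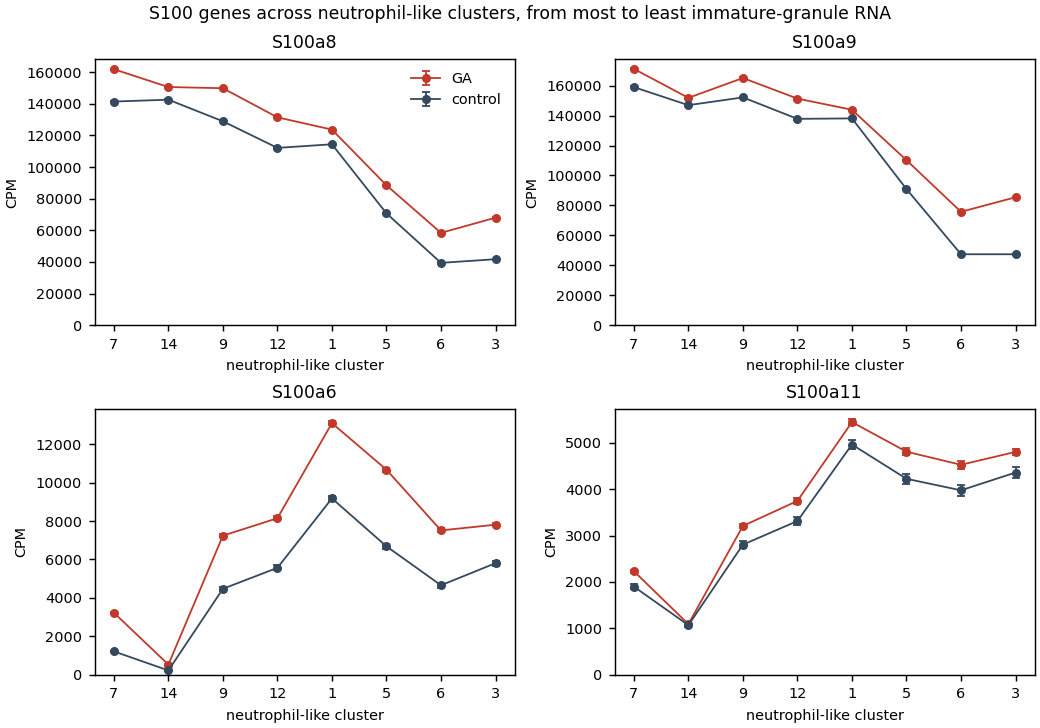
Levels of S100a8, S100a9, S100a6 and S100a11 (CPM, bars are exact 95% counting intervals) in the 8 clusters of neutrophil-like cells, from most to least immature granule RNA: 7 (Ltf), 14 (dividing), 9 (Mmp8), 12 (Thbs1, Krt83), 1 (Cstdc4, Retnlg), 5 (Arg2), 6 (Cxcl3, Acod1) and 3 (Egr1). In GA, S100a8 stands at 161882 CPM in cluster 7 and 58364 CPM in cluster 6, while S100a6 is highest, at 13102 CPM, in cluster 1.

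Granulocyte-monocyte progenitor-like cells, marked by Mpo and Elane, were the only other group in which the pair led all genes: S100a8 ranked first and S100a9 second in both libraries. S100a8 stood at 15635 CPM in GA (257 cells) and 26073 CPM in control cells (93 cells), a log2 ratio of −0.74 (interval −0.75 to −0.73). S100a9 stood at 13101 and 23121 CPM, a log2 ratio of −0.82. The direction of the class sum was thus the reverse of that in neutrophil-like cells. The pair was spread very unevenly over the progenitor-like cells. The median cell gave it 0.243% of its UMIs in GA and 2.61% in control, and the highest 10% of cells gave it 15.2% or more and 17.4% or more. Whether the libraries differed in the share of pair-rich cells or in the level per cell was not tested. Of 8 members, 4 were lower and 1 was higher by more than 0.5 units in GA, where 12.1% of 7179 genes differed by as much (8.05% higher and 4.05% lower). S100a1 (74.8 against 114 CPM) and S100a11 (469 against 663 CPM) were lower, and S100a10, which carries annexin A2 to the membrane, was higher at 221 against 148 CPM.

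Outside these groups the pair was found in cells of every name. S100a8 stood at 637 CPM in GA and 65.8 CPM in control mesenchymal-like cells, a log2 ratio of 3.27 (interval 3.23 to 3.31). In macrophage-like cells it stood at 789 and 107 CPM, a log2 ratio of 2.88, and S100a9 stood at 895 and 94.0 CPM, a log2 ratio of 3.25. Even B-like cells, which should lack the gene, held 350 and 135 CPM of S100a8. Free RNA from broken neutrophils can be captured in droplets with other cells. The levels were therefore set against those of 7 other neutrophil genes, each as a percent of its own level in neutrophil-like cells of that library. A droplet that holds a neutrophil beside another cell would bring the same genes. The comparison thus cannot tell free RNA from such doublets. In GA mesenchymal-like cells S100a8 stood at 0.487% and S100a9 at 0.520% of the neutrophil level, and the 7 genes spanned 0.381% to 0.740%. In control mesenchymal-like cells S100a8 stood at 0.0577% and S100a9 at 0.0679%, and the 7 genes spanned 0.0487% to 0.0992%. The pair thus lay inside the range of the 7 genes in both libraries, and the whole set stood several times higher in GA, the library with more neutrophil-like cells.

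The same held in macrophage-like cells of GA, where S100a8 stood at 0.604% and S100a9 at 0.625% and the 7 genes spanned 0.393% to 1.45%. In the control macrophage-like cells S100a8 stood at 0.0940% and S100a9 at 0.0732% against 0.0553% to 0.612%. The upper end there was Mmp8 alone, and Cd177 followed at 0.155%. The median of the 7 genes was 0.0839%, with S100a8 above it and S100a9 below it. When the UMIs that the 7 genes, summed, predict were subtracted, no S100a8 was left in mesenchymal-like cells of either library or in GA macrophage-like cells. In control macrophage-like cells 3.52% of it was left. By the count of members, 2 of 8 differed by more than 0.5 units in macrophage-like cells, S100a8 and S100a9, where 7.6% of 9665 genes did. After subtraction there was no ratio left to give for either gene. All 5 other neutrophil genes with 200 UMIs in macrophage-like cells were higher in GA too, with a median log2 ratio of 2.58, and in mesenchymal-like cells all 6 were, with a median of 2.99. By shares of cells, thinned to 2000 UMIs each, S100a8 was met in 29.4% of GA and 9.48% of control mesenchymal-like cells, in 39.8% and 16.5% of macrophage-like cells and in 37.5% and 13.5% of B-like cells. The thinned shares in mesenchymal-like cells were below those in B-like cells of the same library, and those in macrophage-like cells were close to them. Thinning keeps a smaller part of the UMIs of a deeper cell, so this order cannot be read apart from depth. For mesenchymal-like and B-like cells it was the reverse without thinning. Without thinning, 99.1% and 88.2% of mesenchymal-like cells held an S100a8 UMI at median depths of 52893 and 51581, and 78.8% and 40.4% of B-like cells did at 6588 and 6031.

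**Figure D3:**
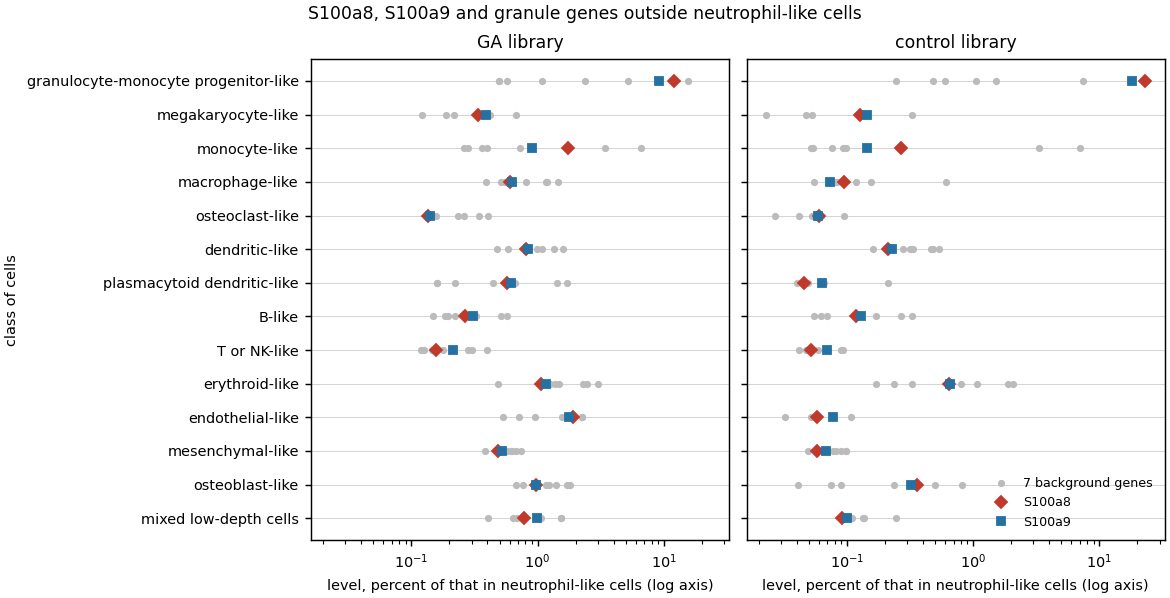
Levels of S100a8 and S100a9 outside neutrophil-like cells, as a percent of their level in neutrophil-like cells of the same library (log axis), with 7 other neutrophil genes as grey points. In mesenchymal-like cells S100a8 lies at 0.487% in GA and 0.0577% in control, inside the range of the 7 genes, and in monocyte-like cells it lies at 1.75% and 0.267%, above their medians of 0.401% and 0.0935%.

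A few cells carried much of the signal. In GA mesenchymal-like cells 5 of 775 cells held 42.2% of all S100a8 UMIs, and in GA macrophage-like cells 5 of 748 held 44.7%. The median cell held 8 S100a8 UMIs in GA and 2 in control among mesenchymal-like cells, and 5 and 2 among macrophage-like cells. In GA endothelial-like cells, where S100a8 stood at 2482 CPM against 66.5 CPM in control, 5 of 55 cells held 83.5%. The median endothelial-like cell held 3978 UMIs of all genes in GA and 31172 in control, so these levels were not taken at like depth. The medians per cell thus differed by less than the sums. Without the 5 cells of each library that held most S100a8, its log2 ratio was 2.92 in mesenchymal-like and 2.14 in macrophage-like cells. With no doublets removed it was 2.62 and 2.10.

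Monocyte-like cells departed from this pattern in part, since the pair lay inside the range of the 7 genes but above 5 of them. S100a8 stood at 2284 CPM in GA (interval 2261 to 2307) and 304 CPM in control cells (292 to 317), a log2 ratio of 2.91, and S100a9 at 1294 and 184 CPM, a log2 ratio of 2.81. These 2 of 8 members passed 0.5 units, where 15% of 8408 genes did. As a percent of the neutrophil level S100a8 stood at 1.75% in GA, against 0.261% to 0.732% for Camp, Ngp, Ltf, Retnlg and Ly6g, and of the 7 genes only Cd177 and Mmp8 stood higher, at 3.40% and 6.63%. In control cells S100a8 stood at 0.267% against 0.0517% to 0.0992% for the same 5 genes, and again Mmp8 (3.31%) and Cd177 (7.08%) stood higher. The balance within the pair also differed: monocyte-like cells held 1.77 S100a8 UMIs per S100a9 UMI in GA (interval 1.74 to 1.795) and 1.65 in control (1.55 to 1.77), where neutrophil-like cells held 0.91 and 0.89. Control macrophage-like cells also held more S100a8 than S100a9, 3596 against 3156 UMIs, with 2384 against 1669 in their cluster led by Arg1 and Mmp12. GA macrophage-like cells held less, 13564 against 15384. After subtraction 71.2% of the S100a8 of GA and 28.4% of that of control monocyte-like cells was left. Of S100a9, 45.0% was left in GA and 0 in control. The subtraction used the 7 genes summed, Mmp8 and Cd177 among them. Per 100 S100a8 UMIs the 7 genes gave 13.4 UMIs in GA and 41.6 in control, and Ngp, Camp, Ltf and Retnlg alone gave 7.94 and 13.2. The amounts left thus depend on which genes are summed. After subtraction part of the pair was left in other groups as well. In GA endothelial-like cells 42.1% of S100a8 and 38.8% of S100a9 was left, and in control osteoblast-like cells 40.9% and 34.9%. Neutrophil-like clusters differ in this balance too. In the GA Egr1 cluster S100a8 stood at 52.0% of its level in all GA neutrophil-like cells, and the 7 genes, summed, at 14.1%. The amounts left thus also depend on the kind of neutrophil, and do not show RNA made by these groups. The cluster led by Ly6c2 and F13a1, genes of classical monocytes, stood at 2677 and 574 CPM of S100a8, above the Ccr2 and Ms4a4c cluster at 1575 and 94.1 CPM. The Ccr2 and Ms4a4c cluster held 72.9% of control monocyte-like cells. There S100a8 stood at 0.0826% of the neutrophil level in control, inside the 0.0599% to 0.123% of the same 5 genes. In GA cells of that cluster it stood at 1.20% against 0.145% to 0.685%. In control cells of the Ly6c2 cluster it stood at 0.504% against 0.0355% to 0.0754%. In monocyte-like cells too the sum leaned on few cells, with 20.6% of GA and 51.4% of control S100a8 UMIs in 5 cells. The median cell held 8 UMIs in GA and 1 in control. Granulocyte-monocyte progenitor-like cells likewise held more S100a8 than S100a9, 1.19 and 1.13 UMIs per S100a9 UMI, and kept 37.7% and 46.7% of S100a8 after subtraction. In these cells Camp stood at 15.6% and 23.2% of its neutrophil level and Mmp8 at 0.499% and 0.246%. With the 7 genes this far apart, the amount left cannot measure free RNA in this group. The same limit holds for monocyte-like cells, where the 7 genes spanned 0.261% to 6.63% in GA and 0.0517% to 7.08% in control. S100a8 lay inside both of these spans.

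Among the named groups S100a4 was highest in macrophages and their relatives, though not confined to them. This member binds non-muscle myosin and is known for its part in cell migration. Its highest level was in osteoclast-like cells, the bone-resorbing cells, at 5558 CPM in GA (29 cells) and 5710 CPM in control (58 cells). Dendritic-like cells followed with 3339 and 3614 CPM, then monocyte-like cells with 1851 and 2414 CPM and macrophage-like cells with 1837 and 1797 CPM. In monocyte-like cells its log2 ratio was −0.38 (interval −0.41 to −0.36), and in T or NK-like cells it stood at 560 against 1019 CPM, a ratio of −0.86. Among macrophage-like cells it was concentrated in the Arg1 and Mmp12 cluster, with 2740 and 2920 CPM, and stood at 714 and 573 CPM in the C1q and Apoe cluster. The remaining cluster, with 40 GA and 24 control cells, stood at 53.3 and 36.4 CPM. In neutrophil-like cells it stood at 7.099 CPM in GA (304 UMIs) and 17.5 CPM in control (275 UMIs), a log2 ratio of −1.30, and S100a10 stood at 9.08 and 17.5 CPM, a log2 ratio of −0.94.

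These last levels were small against those outside neutrophils. Thinned to 2000 UMIs, 1.57% of GA and 2.91% of control neutrophil-like cells held an S100a4 UMI, close to the 1.52% and 2.21% of B-like cells, while 92.8% and 92.4% of monocyte-like and 68.1% and 61.9% of macrophage-like cells did. S100a4 in neutrophil-like cells stood at 0.701% of its level in the other cells of GA and at 1.81% in control, and S100a10 at 0.805% and 1.53%. Macrophage marker genes stood at medians of 1.11% and 1.49% there, and mesenchymal marker genes at 0.960% and 1.38%. The 2 lower calls in neutrophil-like cells were thus made at the level of markers of other cells, and their part in the result was not tested. In control cells 105 of 275 S100a4 UMIs of neutrophil-like cells came from the Egr1 cluster, at 87.7 CPM against 19.6 CPM in GA.

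S100a6 and S100a10 were also genes of the mesenchymal compartment. S100a6 stood at 4305 CPM in GA and 3546 CPM in control mesenchymal-like cells, a log2 ratio of 0.28. S100a10 was highest of all groups in mesenchymal-like cells, at 1740 and 1389 CPM, a log2 ratio of 0.33, and S100a11 stood at 1399 and 1233 CPM. S100a4 stood at 811 and 449 CPM there, a log2 ratio of 0.85 (interval 0.83 to 0.87), and with its 4 clusters weighted alike the ratio was 0.48, under 0.5. With S100a8, S100a9 and S100b, it made 4 of 9 members beyond 0.5 units in mesenchymal-like cells, 3 higher and 1 lower in GA, where 12.5% of 12703 genes were (5.53% higher and 6.94% lower). In osteoblast-like cells, which mineralise bone matrix, S100a6 stood at 147 CPM in GA and 82.1 CPM in control and S100a4 was met at 9.62 and 8.58 CPM. Of 7 members with 200 UMIs there, 4 (S100a8, S100a9, S100a6 and S100a10) were beyond 0.5 units and higher in GA, where 12.6% of 2786 genes were beyond it, with 76 and 51 cells in the group. The pair stood at 0.979% and 0.980% of its neutrophil level in GA osteoblast-like cells, where the 7 other neutrophil genes spanned 0.670% to 1.82%. In control it stood at 0.358% and 0.322%, where they spanned 0 to 0.809% with a median of 0.0893%. After subtraction 40.9% of S100a8 and 34.9% of S100a9 was left in control osteoblast-like cells, and 0 of either in GA. Of the 7 genes, all 4 with 200 UMIs were higher in GA, with a median log2 ratio of 2.93. The part of free neutrophil RNA in the result was not tested.

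**Figure D4:**
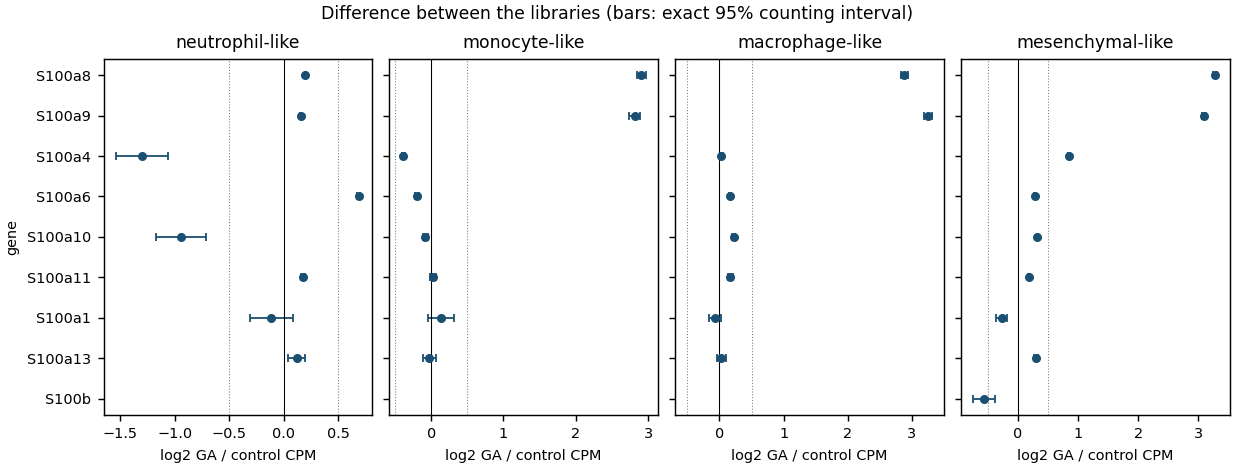
Log2 ratio of GA over control CPM of each member with at least 200 UMIs in neutrophil-like, monocyte-like, macrophage-like and mesenchymal-like cells, with exact 95% counting intervals as bars and dotted lines at 0.5 log2 units either way. S100a8 and S100a9 lie at 0.20 and 0.16 in neutrophil-like cells and between 2.81 and 3.27 in the other panels, and S100a6 lies at 0.69 in neutrophil-like cells.

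The mesenchymal-like cells divided into 4 clusters whose shares differed between the libraries. The dividing cluster (Crabp1, Ube2c) held 39.1% of mesenchymal-like cells in GA and 25.3% in control, the Cd34 stem-like cluster (Clec3b, Pi16, Mmp3) 35.0% and 28.8%, the multilineage progenitor-like cluster (Matn4, Tnmd, Lgr5) 18.7% and 24.6%, and the fibroblastic progenitor-like cluster (Eln, Mgp) 7.23% and 21.3%. S100a4, S100a6, S100a1 and S100b differed among them by more than they differed between the libraries. S100a4 stood at 1389 CPM in GA and 938 CPM in control cells of the dividing cluster, but at 436 and 293 CPM in the multilineage and 196 and 121 CPM in the Cd34 stem-like cluster. It was higher in GA in these 3 clusters, by 0.57 to 0.70 log2 units, and lower in the fibroblastic cluster, at 92.1 against 163 CPM (log2 ratio −0.82, interval −1.04 to −0.61). S100a6 was likewise highest in the dividing cluster, at 6257 and 6053 CPM, a log2 ratio of 0.05, and the other clusters held 1803 to 2608 CPM.

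S100b showed the same division more sharply. This member is best known from glial cells, and its level in mesenchymal-like cells as a whole was lower in GA, 7.83 against 11.6 CPM, a log2 ratio of −0.56 (interval −0.74 to −0.39). Within the fibroblastic cluster it stood at 109 CPM in GA and 54.2 CPM in control, a log2 ratio of 1.01 (0.79 to 1.22), and within the multilineage cluster at 10.1 and 5.19 CPM, a ratio of 0.96. The sum over the class thus went against both clusters that held most of its UMIs. In the Cd34 stem-like cluster S100b was lower in GA, at 1.97 against 3.83 CPM (log2 ratio −0.96, interval −1.64 to −0.32). In the dividing cluster the ratio was 0.05. With the 4 clusters weighted alike the log2 ratio was 0.93. The highest level in that mean came from the fibroblastic cluster, with 56 GA and 362 control cells. S100a1 behaved alike, at 154 and 107 CPM in the fibroblastic cluster and at most 29.9 CPM in the others, with a ratio of −0.27 over the class and 0.41 with the clusters weighted alike.

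**Figure D5:**
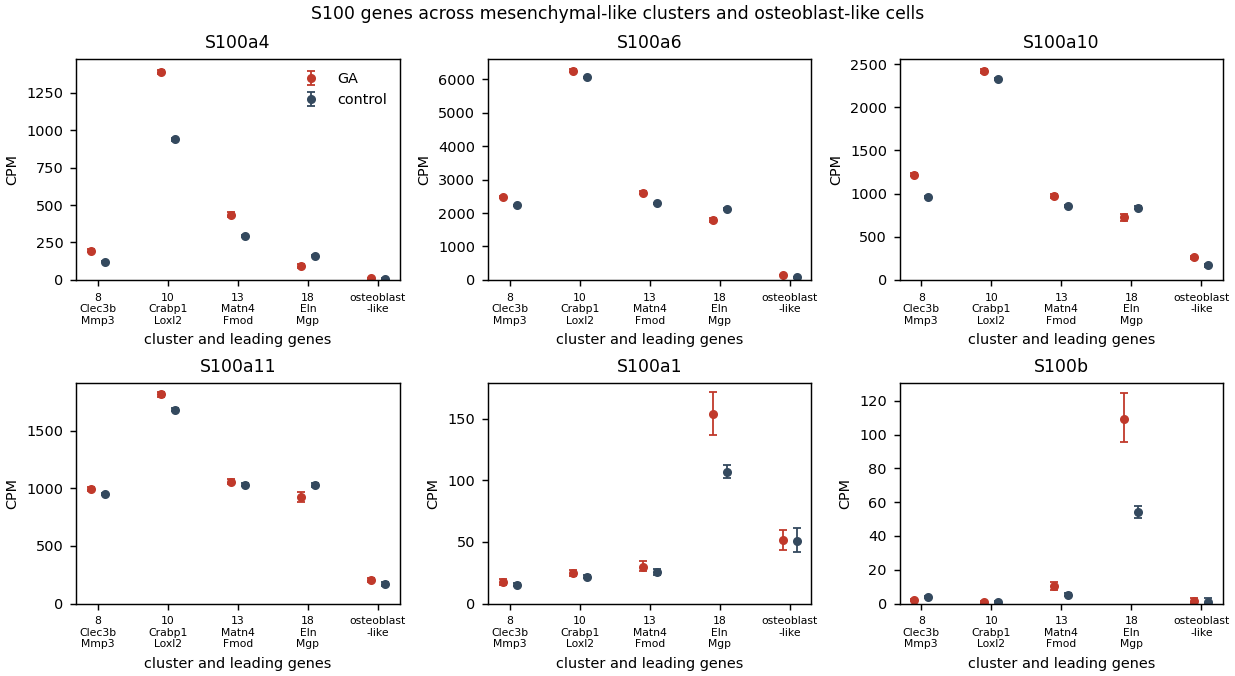
Levels of S100a4, S100a6, S100a10, S100a11, S100a1 and S100b (CPM, bars are exact 95% counting intervals) in the 4 clusters of mesenchymal-like cells, 8 (Cd34 stem-like), 10 (dividing), 13 (multilineage) and 18 (fibroblastic), and in osteoblast-like cells, for both libraries. S100a4 and S100a6 peak in the dividing cluster (1389 and 6257 CPM in GA) and S100a1 and S100b in the fibroblastic cluster (154 and 109 CPM in GA).

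S100a1 and S100a13 were low in most groups. S100a1 stood at 116 CPM in GA and 121 CPM in control osteoclast-like cells. S100a13 stood at 123 and 113 CPM in neutrophil-like cells, 160 and 156 CPM in macrophage-like cells and 336 and 252 CPM in endothelial-like cells. In macrophage-like cells S100a1 stood at 89.96 and 94.3 CPM (log2 ratio −0.07, interval −0.16 to 0.02), and the ratio of S100a13 there was 0.03 (−0.04 to 0.10).

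The other S100 genes of the matrices were nearly silent, apart from S100a16. S100a16 was the one with over 200 UMIs in mesenchymal-like cells, at 286 CPM in GA and 224 CPM in control, and it stood at 235 and 274 CPM in endothelial-like cells. S100a2, S100a3, S100a5, S100a7a, S100a14, S100g and S100z were at or near 0.

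Receptors of S100 proteins were measured in the same cells. Cd14, a co-receptor of TLR4, was the most abundant of them in neutrophil-like cells, at 653 CPM in GA and 584 CPM in control, and Tlr4 itself stood at 61.2 and 64.3 CPM. Of 6 receptors with 200 UMIs there, none passed 0.5 units, where 8.72% of all genes did. Ager, the gene of RAGE, had 82 and 27 UMIs in these cells. In monocyte-like cells 2 of 7 were lower in GA, Cd36 (35.1 against 188 CPM, log2 ratio −2.42) and Cd14 (844 against 1272 CPM, −0.59), and none was higher, where 15% of all genes passed 0.5 units. In macrophage-like cells 0 of 7 passed 0.5 units, where 7.6% of all genes did, with Tlr4 at 74.1 and 65.3 CPM. In mesenchymal-like cells Tlr4 was the single receptor that was higher by more than 0.5, at 27.0 against 17.3 CPM, and Cd36 the single one that was lower, at 1.07 against 1.88 CPM, so 2 of 5 passed where 12.5% of all genes did.

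Among 13 binding partners inside the cell, the 5 annexins all stood within 0.5 units in neutrophil-like cells. Anxa1 stood at 1953 CPM in GA and 1512 CPM in control (log2 ratio 0.37) and Anxa2, the partner of S100a10, at 651 and 518 CPM (0.33), while Anxa11 (0.10), Anxa5 (−0.01) and Anxa6 (−0.29) were nearer to the median gene or below it. Of 12 partners with 200 UMIs there, Ahnak (−0.90) and Il1a (−0.62) were lower and none was higher, where 8.72% of all genes passed 0.5 units. In macrophage-like cells 1 of 12 was lower, Il1a at 63.8 against 93.9 CPM, and in mesenchymal-like cells 1 of 12 was higher, Fgf1 at 4.24 against 2.29 CPM. These counts are near the background shares of 7.6% and 12.5% of all genes. In monocyte-like cells Anxa5, Ahnak and Il1a were lower, 3 of 12, where 15% of all genes passed.

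Factors known to act on the promoters of S100a8 and S100a9 did not differ by 0.5 units in neutrophil-like cells, 0 of 7, where 8.72% of all genes did. Cebpb stood at 1583 CPM in GA and 1574 CPM in control, Cebpd at 245 and 245 CPM, and Spi1 at 460 and 432 CPM. In granulocyte-monocyte progenitor-like cells, where the pair was lower in GA, 3 of 7 passed, where 12.1% of all genes did. Cebpd was lower at 170 against 268 CPM (log2 ratio −0.66) and Cebpe at 182 against 262 CPM (−0.53), while Klf4 was higher at 41.7 against 26.8 CPM (0.64). Camp (3325 against 6370 CPM), Ngp (1062 against 1563 CPM) and Retnlg were lower there too, while Ltf, Mmp8, Cd177 and Ly6g were higher. A link between these factors and the pair was not tested.

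The genes whose levels ran most like a member's were sought over 15 groups of at least 50 cells, both libraries summed, as Pearson's r of log2(CPM + 10) among 15238 genes. For S100a8 these were S100a9 (r = 0.994), Wfdc21 (0.990) and Camp (0.957), and for S100a9 they were S100a8, Wfdc21 (0.988) and Ngp (0.973). For S100a4 they were C9orf72 (0.927), Cyp4f16 (0.919) and Fam89b (0.912), and for S100a6 Slc25a24 (0.924), Chp1 (0.884) and Il13ra1 (0.837). S100a10 ran with Rassf1 (0.876), Crip1 (0.845) and Plpbp (0.834), and S100a11 with Mtmr6 (0.879), Flna (0.876) and Atp11a (0.866). S100a13 ran with Arid5b (0.912), Hif1a (0.882) and Tmem30a (0.880), and S100a1 with Tmem141 (0.868), Tmem205 (0.855) and Guca1a (0.841). S100b ran with Iglon5 (0.971), C4b (0.962) and Gm4131 (0.959). Among the members themselves the closest after the pair were S100a6 with S100a11 (0.787) and S100a4 with S100a10 (0.757), and S100a4 with S100a6 followed (0.650). The groups share their libraries and differ in depth, and UMIs of neutrophil genes were met in every group. The genes named are the highest of 15238 over only 15 groups. What r such a choice gives among unrelated genes was not computed, so the lower values in particular do not show a relation. S100b was below the added 10 CPM in most groups, so its r rests on few of them.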

How the data were processed

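Droplet libraries of 2 pools of mice, GA and control, were used. The deposited counts are UMIs per gene and barcode, made by the authors with Cell Ranger (7.0.1 per the file headers) on mm10 and not normalized. Barcodes with 500 to 140000 UMIs, 200 to 9500 genes and at most 15% mitochondrial UMIs were kept, following the study's methods: 9036 of 9322 in GA (182949385 UMIs before filtering) and 8093 of 8718 in control (214993030 UMIs). Scrublet scores from Scanpy 1.11.5 called 0.0322% and 0.596% of barcodes at the automatic threshold, so the highest scores were removed at 0.8% per 1000 barcodes, 661 and 538.

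Cells were clustered on Pearson residuals of 2000 variable genes with all S100 genes left out, 50 components, Harmony over the libraries, 15 neighbours and Leiden resolution 1 (leidenalg 0.10.2, Python 3.11.15, NumPy 2.4.6, SciPy 1.17.1). Clusters were named from marker lists. Thresholds for naming were chosen with the data in view, and the members and lists were chosen with earlier results of these data known. UMIs were summed per group and library and divided by the total of those cells (CPM). No test was run, since each group has 1 library. Intervals are exact Poisson (levels), binomial (shares) or conditional binomial (ratios) at 95% and cover counting error only. Those of levels and ratios leave out the spread between cells. At these depths they are narrow and say nothing about mice. A gene was counted as different beyond 0.5 log2 units with at least 200 UMIs over both libraries. Shares of cells were taken after thinning to 2000 UMIs, which left out 158 GA and 199 control cells. Genes named are the 9 members, those of fixed lists, and the 3 genes most like each member. The scripts were tested on simulated data. The alternatives were other cell limits, doublets kept, other clusterings and names, other totals, thinning, background subtraction and leaving out 5 cells. Positions come from a GENCODE annotation of GRCm38, and sequences from RefSeq promoter windows of GRCm38.p6. The values of 1 small group of cells are not reported here.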

Additional observations from a re-analysis of the deposited data

How the results depend on the processing

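No paired analysis was possible because each treatment has 1 library. Of 36 log2 ratios (9 members in all, neutrophil-like, macrophage-like and mesenchymal-like cells) under 17 settings, 29 kept their sign in every setting that gave a value and the other 7 did not, 173 values moved by more than their counting interval, and of the ratios beyond 0.5 units 1 reversed: S100b in mesenchymal-like cells became 0.93 with the clusters of the class weighted alike, an alternative chosen after seeing the data. Under it S100a1 in those cells, which was within 0.5 units, went from −0.27 to 0.41, and S100a4 to 0.48. S100a6 in neutrophil-like cells ranged from 0.54 (cells thinned to 2000 UMIs) to 0.82 (relative to the median gene). With no doublets removed the ratios in neutrophil-like cells were −0.55 for S100a4 and −0.23 for S100a10. S100a4 in mesenchymal-like cells was 0.41 at Leiden resolution 0.5. The share of the pair held by neutrophil-like cells, 95.1% over both libraries, was 90.1% at resolution 2, 93.8% with no doublets removed, 94.98% at a mitochondrial limit of 10%, 94.8% with no batch correction, 94.98% with S100 genes kept in the clustering, 97.4% on log1p of counts, 95.02% from 2000 UMIs per cell, 80.1% when cells were named 1 by 1 by score, 98.4% as a mean over cells, 98.6% with background subtracted, 98.5% thinned and 96.2% without the 5 cells with the most pair UMIs. Members beyond 0.5 units went from 3 to 8 in all cells (mean over cells of CPM, and thinned), from 2 to 0 in macrophage-like cells (background subtracted), from 4 to 2 in mesenchymal-like cells (background subtracted, and at 1 log2 unit) and from 3 to 1 in neutrophil-like cells (at 1 log2 unit). With 20 UMIs as the minimum the background shares were 38.7% in all, 21.8% in neutrophil-like, 17.3% in macrophage-like and 22.4% in mesenchymal-like cells. After subtraction the pair had no ratio in macrophage-like or mesenchymal-like cells, and other totals do not apply to the share. The cause of these shifts was not tested where the setting itself does not show it. Depth is no limit for the pair, but S100b rests on 446 and 1605 UMIs per library, and in neutrophil-like cells on 2 and 6. With 1 pool per treatment no value can be set against the spread between mice.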
